A study of Homo sapiens with 6 samples.

Results

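The 49 genes described here encode the mTOR protein kinase complexes, the machinery that reports amino acids, growth factors and stress to them, and the translation initiation proteins they act on. They were listed by their place in the pathway, with earlier results of these data known, and they fall into 7 branches by role: 7 genes of the kinase core and of mTOR complex 1, 4 of mTOR complex 2, 13 of the Rag-Ragulator platform of the lysosome, 10 of the GATOR complexes and CASTOR sensors, 4 of the TSC complex with its GTPase RHEB, 5 sestrin and stress genes, and 6 genes of cap-dependent translation. All 49 passed the filter on low counts, among 20081 tested genes of 61498 in the tables. RNA-seq after removal of ribosomal RNA was carried out on 3 untreated human cell lines with 2 libraries each: RPMI-8226, an established multiple myeloma line; RPMI-8226-R, its derivative resistant to the proteasome inhibitor bortezomib; and NCI-BL2171, which is labelled as B-lymphocytes. RPMI-8226-R is 1 derivative of 1 line, and the labels state neither how resistance was raised nor whether a line's libraries were grown as separate cultures. A p-value here is therefore measured against the spread of these libraries alone, and that spread may be technical. The study's title sets bortezomib resistance beside the PI3K/mTOR pathway.

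mTOR is a serine/threonine kinase that works in a pair of complexes. Complex 1, built around RPTOR, is recruited by Rag GTPases to the lysosome when amino acids are present and is switched on there by RHEB; it then phosphorylates the S6 kinases and the 4E-BP proteins, which release the cap-binding protein EIF4E. Complex 2, built around RICTOR, phosphorylates AKT. In plasma cells and myeloma, which make and secrete large amounts of immunoglobulin, the pathway links nutrient supply to protein synthesis, and DEPTOR, an inhibitory partner of the kinase, is known for its high level in part of myelomas.

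The libraries held between 23952370 and 29052199 estimated reads. Of 13 B and plasma cell markers, 9 were above 1 TPM (a level per transcript length, relative to the library's sum) in both RPMI-8226 libraries and 8 in both RPMI-8226-R libraries, with MS4A1 without a read in the latter. In the libraries labelled NCI-BL2171 only 2 of the 13 were above 1 TPM, their sum was 5.77 to 7.27 TPM against 4414 to 8702 TPM in the myeloma lines, and MS4A1, PAX5, JCHAIN, MZB1, TNFRSF17, IRF4 and POU2AF1 had no read. All 8 erythroid markers were above 1 TPM there, at a summed 45171 to 47094 TPM against 33.5 to 115 TPM. The label therefore goes against the markers, and the part of this in the comparisons with that line was not tested. As in any bulk sample, fewer cells that express a gene and less RNA per cell cannot be told apart.

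Between the resistant line and its parent, 19 members rose, 18 fell and 12 did not pass (edgeR quasi-likelihood test, Benjamini-Hochberg adjusted p under 0.05 over all tested genes). Of all tested genes 65.6% passed in this comparison, 28.5% as higher and 37.2% as lower, so the members' 37 of 49 (75.5%) stood against a background in which most expressed genes differed between these lines. The median log2 fold change of the members was 0.03 against -0.12 for all tested genes, and their median size regardless of sign was 0.57 against 0.72. At least 2-fold changes were seen for 6 members upward (RPTOR, AKT1S1, RRAGB, SLC38A9, SEH1L and EIF4G1) and 9 downward (DEPTOR, RRAGD, FNIP1, CASTOR1, RHEB, SESN1, SESN2, DDIT4 and DDIT4L), against 11.8% and 21.5% of all tested genes (33.3% in either direction). The balance of small changes depended on scaling. Of all called genes 43.4% were higher with TMM scaling, 54.0% without scaling beyond the library total and 60.7% on the log2(TPM + 1) scale, which moved the median of all genes by 0.21 and 0.36 respectively; the members then stood at 26 higher and 15 lower, and at 25 higher and 11 lower. The levels are TMM-normalised CPM (reads relative to the library's scaled total) in the libraries titled 1 and 2 of a line, in that order, unless TPM is named; for NCI-BL2171 the deposited tables carry these numbers the other way round, which leaves the values of the line as a whole as they are.

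**Figure D1:**
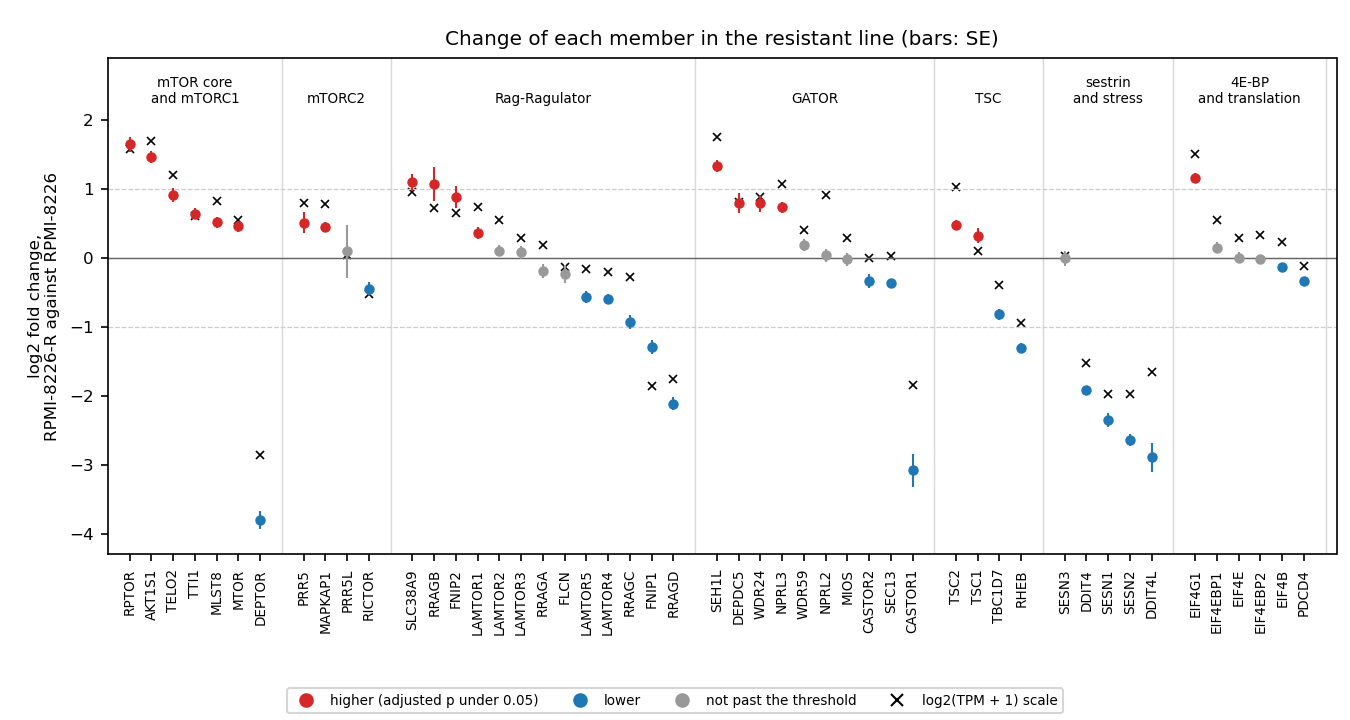
Log2 fold change of each of the 49 members in RPMI-8226-R against RPMI-8226 (vertical axis), grouped by branch and ordered within it; points are edgeR estimates with their SE (2 libraries per line), coloured by call, and crosses are the same change on the log2(TPM + 1) scale. The kinase core lies above 0 except for DEPTOR at -3.80, and 4 of the 5 sestrin and stress genes lie between -1.92 and -2.89.

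In the kinase core and complex 1, 6 of the 7 genes rose in the resistant line and 1 inhibitor fell. MTOR, RPTOR, MLST8, AKT1S1, TELO2 and TTI1 were all higher in both libraries and DEPTOR was lower. Of all tested genes 28.5% were called higher and 37.2% lower, which is the background for the counts of each branch. With an offset for effective length 5 of the 7 core genes were higher, without MTOR. RPTOR, the substrate-recruiting subunit that defines complex 1 (ENSG00000141564.15; chromosome 17, 80544819 to 80966371, plus strand, GRCh38), stood at 9.67 and 9.65 CPM in RPMI-8226, 30.1 and 30.4 CPM in RPMI-8226-R and 24.2 and 23.5 CPM in the libraries labelled NCI-BL2171. The parental line was low in both libraries, and the 3 lines did not overlap. The log2 fold change of RPTOR against the parent was 1.65 ± 0.11 (edgeR adjusted p = 2.3e-11). DEPTOR (ENSG00000155792.10; chromosome 8, 119873717 to 120050913, plus strand) stood at 50.9 and 49.02 CPM in RPMI-8226 and at 3.38 and 3.78 CPM in RPMI-8226-R. It was lowest in the libraries labelled NCI-BL2171, at 0.220 and 0.282 CPM. Its log2 fold change was -3.80 ± 0.13 between the resistant line and its parent (edgeR adjusted p = 5.7e-16), and its level in RPMI-8226-R was still above that of the libraries labelled NCI-BL2171, by 3.82 ± 0.28 on the log2 scale (edgeR adjusted p = 5.5e-11).

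Per transcript length, RPMI-8226 had more RNA of the inhibitor DEPTOR than of the kinase, and the other lines had less. DEPTOR over MTOR in TPM was 2.37 and 1.98 in RPMI-8226, 0.129 and 0.133 in RPMI-8226-R and 0.00747 and 0.00669 in the libraries labelled NCI-BL2171. The ranges of the lines did not overlap. MTOR itself, the kinase (chromosome 1, 11106535 to 11262507, minus strand), was at 49.8 and 49.8 CPM in RPMI-8226, 64.1 and 72.1 CPM in RPMI-8226-R and 69.0 and 77.3 CPM in the libraries labelled NCI-BL2171. It was low in the parent, and the other lines overlapped. Its log2 fold change against the parent was 0.45 ± 0.08 (edgeR adjusted p = 4.8e-05), a call lost with an offset for effective transcript length (0.27, adjusted p = 0.151). MLST8, the beta-propeller subunit of both complexes, was at 58.7 and 59.3 CPM in RPMI-8226 and 87.4 and 81.1 CPM in RPMI-8226-R and so rose by 0.51 ± 0.08 on the log2 scale (edgeR adjusted p = 4.1e-06). AKT1S1, the complex 1 substrate and inhibitor PRAS40, was at 23.6 and 22.97 CPM in RPMI-8226, 61.5 and 66.3 CPM in RPMI-8226-R and 32.8 and 33.8 CPM in the libraries labelled NCI-BL2171. It was highest in the resistant line, by 1.46 ± 0.08 on the log2 scale over the parent (edgeR adjusted p = 3.5e-12). Exons of AKT1S1 overlap those of TBC1D17 on the other strand, and how the authors' counting treated strand is not given in the sources used here. TELO2 and TTI1, partners in the chaperone module that assembles mTOR and related kinases, went from 21.9 and 24.9 CPM to 41.1 and 46.7 CPM and from 31.6 and 33.6 CPM to 49.7 and 51.8 CPM.

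The same core genes also set the parental line apart from the libraries labelled NCI-BL2171. In RPMI-8226 against these, 6 of the 7 were lower and DEPTOR was higher. Over all 49 members 14 were higher and 24 lower in that comparison, against 41.1% and 35.6% of all tested genes (76.7% in all). At least 2-fold differences were found for 7 members upward and 6 downward, against 28% and 20.7% of all tested genes (48.7% in all). The log2 fold changes of RPTOR, MTOR and MLST8 were -1.30 ± 0.11, -0.55 ± 0.08 and -0.50 ± 0.08 (edgeR adjusted p = 5.9e-10, 2.6e-06 and 3.9e-06), and that of DEPTOR was 7.62 ± 0.20 (edgeR adjusted p = 1.0e-18). Between RPMI-8226-R and the libraries labelled NCI-BL2171, 3 core genes were higher (RPTOR, AKT1S1 and DEPTOR) and 4 did not pass. MTOR differed there by -0.10 ± 0.08 (edgeR adjusted p = 0.244) and MLST8 by 0.01 ± 0.07 (edgeR adjusted p = 0.901). RPTOR was higher by 0.34 ± 0.10 (edgeR adjusted p = 0.00371), a call lost on the log2(TPM + 1) scale (0.04). The comparisons share libraries: RPMI-8226 enters 2 of them and so does each other line, so a low or high value in a line appears in both of its comparisons.

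**Figure D2:**
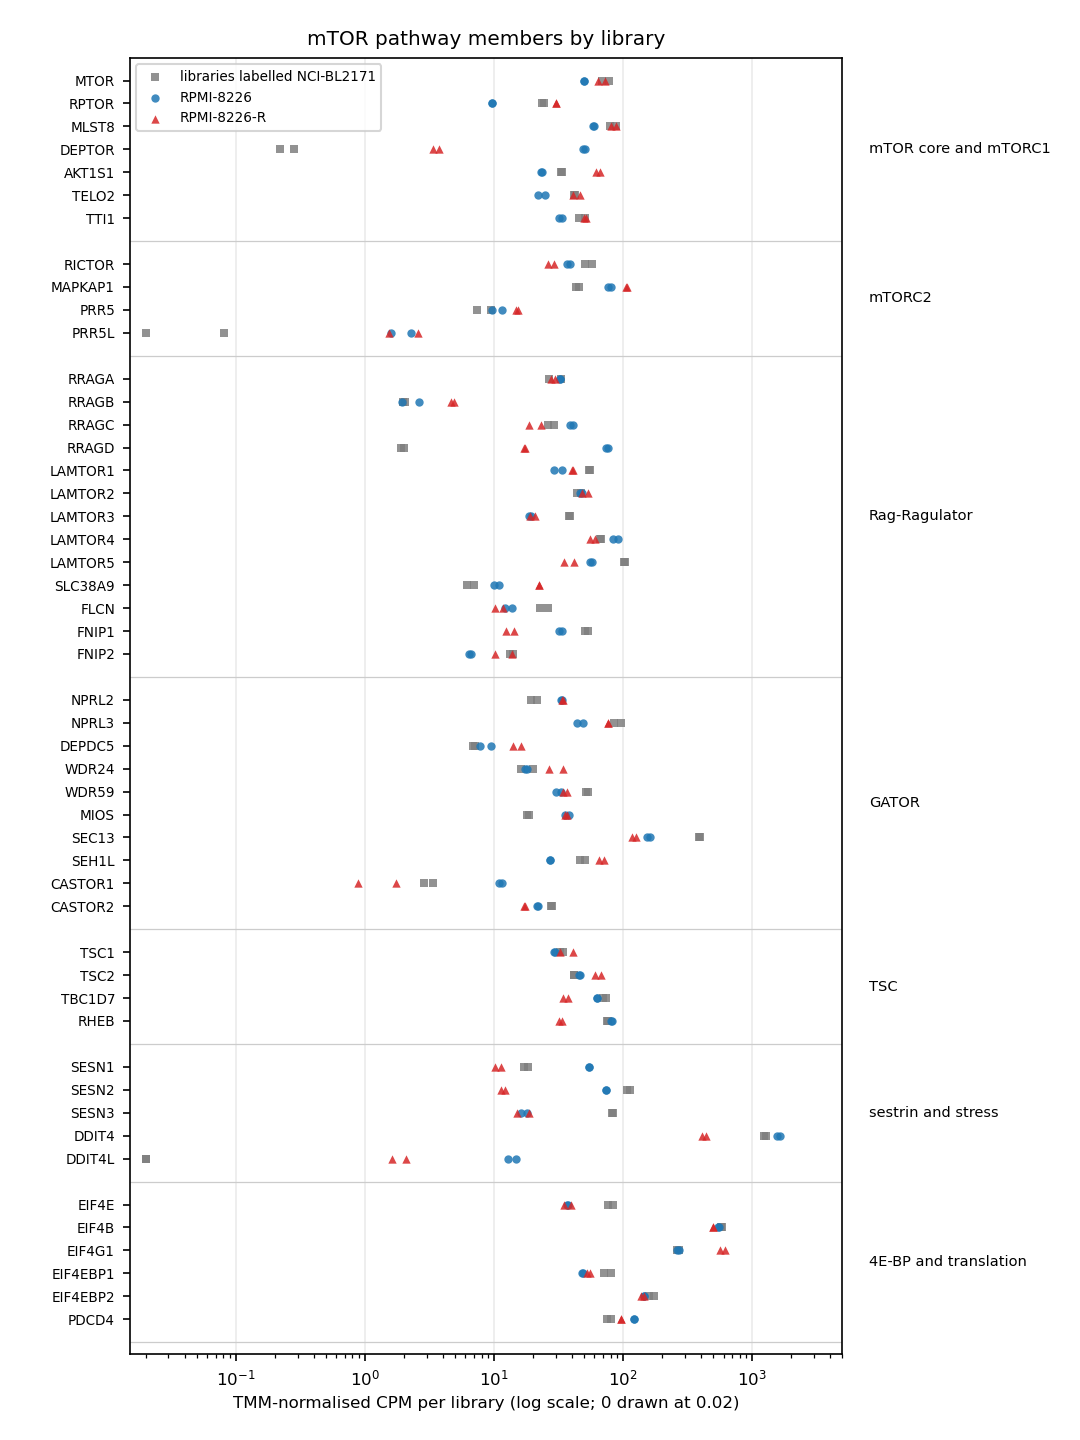
TMM-normalised CPM of the 49 members (rows, grouped by branch) in each of the 6 libraries on a log axis, with grey squares for the libraries labelled NCI-BL2171, blue circles for RPMI-8226 and red triangles for RPMI-8226-R, and values of 0 drawn at 0.02. DEPTOR, RRAGD and DDIT4L are among the most widely spread, with RPMI-8226 highest, RPMI-8226-R between and the libraries labelled NCI-BL2171 lowest.

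Of the 4 complex 2 genes 2 rose, 1 fell and 1 did not pass in the resistant line. RICTOR, its defining scaffold (ENSG00000164327.13; chromosome 5, 38937919 to 39074408, minus strand), stood at 38.6 and 36.4 CPM in RPMI-8226, 26.0 and 28.9 CPM in RPMI-8226-R and 50.7 and 57.1 CPM in the libraries labelled NCI-BL2171. It was lowest in the resistant line and highest in the libraries labelled NCI-BL2171, with no overlap. The log2 fold change between resistant line and parent was -0.45 ± 0.09 (edgeR adjusted p = 2.1e-04); the call was lost on the log2(TPM + 1) scale (-0.52, adjusted p = 0.0725), and the change was larger with an offset for effective length (-0.95). Against the libraries labelled NCI-BL2171 RICTOR was lower by -0.97 ± 0.09 in RPMI-8226-R (edgeR adjusted p = 2.9e-09) and by -0.52 ± 0.09 in RPMI-8226 (edgeR adjusted p = 1.9e-05). In TPM, RPTOR over RICTOR was 0.263 and 0.398 in RPMI-8226, 2.58 and 1.54 in RPMI-8226-R and 1.01 and 0.812 in the libraries labelled NCI-BL2171. The defining subunit of complex 2 was thus the more abundant of the pair in the parental line and the less abundant in the resistant line.

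The other complex 2 genes rose or did not pass. MAPKAP1, the SIN1 subunit that binds substrates, rose from 76.7 and 80.0 CPM to 108 and 105 CPM, and was at 43.2 and 45.7 CPM in the libraries labelled NCI-BL2171. Against these MAPKAP1 was higher in RPMI-8226-R by 1.26 ± 0.07 (edgeR adjusted p = 7.0e-13). PRR5, known as PROTOR1, rose from 9.63 and 11.6 CPM to 14.9 and 15.3 CPM; it shares exons with the readthrough gene PRR5-ARHGAP8. Its relative PRR5L was at 1.60 and 2.253 CPM in RPMI-8226 and 1.52 and 2.56 CPM in RPMI-8226-R, which overlap, and at 0 and 0.0806 CPM in the libraries labelled NCI-BL2171. With so few counts in the latter, the PRR5L count ratio was 49.9 (95% counting interval 13.5 to 418) for RPMI-8226 and 53.6 (14.5 to 448) for RPMI-8226-R over them.

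On the lysosome, the Rag GTPases work as pairs of RRAGA or RRAGB with RRAGC or RRAGD, and the pentamer of LAMTOR proteins called Ragulator anchors them. Of the 13 genes of this branch 4 rose, 5 fell and 4 did not pass in the resistant line (6 rose and 5 fell without scaling beyond the library total, 5 and 3 on the log2(TPM + 1) scale). RRAGD (ENSG00000025039.15; chromosome 6, 89364636 to 89412270, minus strand) stood at 76.3 and 73.4 CPM in RPMI-8226, 17.4 and 17.1 CPM in RPMI-8226-R and 1.91 and 2.01 CPM in the libraries labelled NCI-BL2171. The lines lay far apart in that order, with log2 fold changes of -2.12 ± 0.09 between resistant line and parent (edgeR adjusted p = 2.1e-14) and of 5.25 ± 0.12 between the parent and the libraries labelled NCI-BL2171 (edgeR adjusted p = 1.5e-19). RRAGC fell too, from 40.8 and 38.7 CPM to 23.1 and 18.7 CPM, with 26.2 and 29.2 CPM in the libraries labelled NCI-BL2171. On the log2(TPM + 1) scale RRAGC did not pass, with a difference of -0.28. In TPM, RRAGD made up 59.9% and 62.2% of the sum of RRAGC and RRAGD in RPMI-8226, 32.9% and 35.7% in RPMI-8226-R and 8.39% and 6.51% in the libraries labelled NCI-BL2171. RRAGD was thus the main partner by RNA in the parent alone of the 3 lines. RRAGA was at 32.7 and 32.4 CPM in RPMI-8226 and 29.6 and 27.5 CPM in RPMI-8226-R and did not pass.

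RRAGB, the less abundant relative of RRAGA, was at 2.60 and 1.94 CPM in RPMI-8226, 4.64 and 4.92 CPM in RPMI-8226-R and 1.98 and 2.05 CPM in the libraries labelled NCI-BL2171. The resistant line was the high one and the other lines overlapped; the log2 fold change against the parent was 1.07 ± 0.25 (edgeR adjusted p = 7.7e-04). This call was lost on the log2(TPM + 1) scale (0.72, adjusted p = 0.186) and with an offset for effective length (0.54, adjusted p = 0.413), and the TPM values of the parent were 4.13 and 1.48. SLC38A9, the lysosomal transporter that senses arginine and binds Ragulator (chromosome 5, 55625845 to 55773194, minus strand), was at 10.0 and 10.9 CPM in RPMI-8226, 22.4 and 22.1 CPM in RPMI-8226-R and 6.13 and 7.01 CPM in the libraries labelled NCI-BL2171. It was highest in the resistant line without overlap, by 1.09 ± 0.13 over the parent (edgeR adjusted p = 2.0e-07; 0.70 with an offset for effective length). FLCN and its partners FNIP1 and FNIP2 form the GTPase-activating complex for RRAGC and RRAGD. FNIP1 fell from 32.0 and 33.8 CPM to 12.4 and 14.3 CPM, that is by -1.30 ± 0.10 on the log2 scale (edgeR adjusted p = 2.9e-10; -2.49 with an offset for effective length), and was highest in the libraries labelled NCI-BL2171 at 53.5 and 50.4 CPM. FNIP2 moved the other way, from 6.40 and 6.60 CPM to 10.2 and 13.6 CPM, and FLCN did not pass at 13.7 and 12.2 CPM against 10.2 and 11.8 CPM. The share of FNIP2 in the summed TPM of the pair was 6.23% and 5.79% in RPMI-8226, 38.2% and 39.4% in RPMI-8226-R and 7.16% and 8.19% in the libraries labelled NCI-BL2171. This share also depends on the estimated mean transcript length of FNIP1. That length was 2231 and 2228 bases in RPMI-8226 and 5612 and 5063 bases in RPMI-8226-R.

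**Figure D3:**
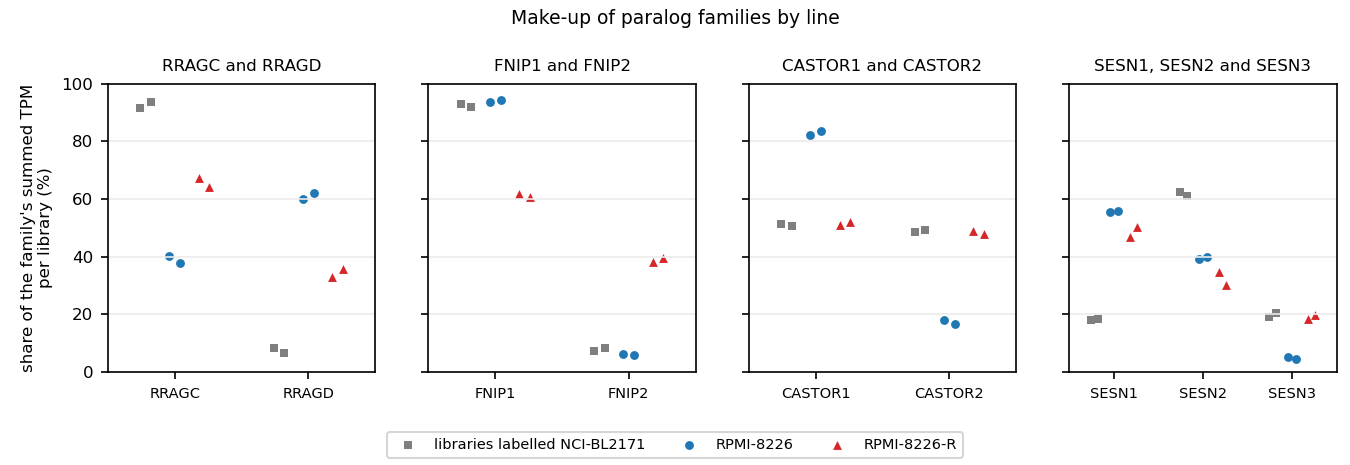
Share of each paralog in the summed TPM of its family, in percent per library (vertical axis), for RRAGC and RRAGD, FNIP1 and FNIP2, CASTOR1 and CASTOR2, and the 3 sestrins, with grey squares for the libraries labelled NCI-BL2171, blue circles for RPMI-8226 and red triangles for RPMI-8226-R. RRAGD and CASTOR1 took the larger share in RPMI-8226, and FNIP2 rose from 6.01% to 38.8% of its family in RPMI-8226-R (means of 2 libraries). The FNIP2 share also depends on the estimated transcript length of FNIP1, which differed between these lines.

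The 5 Ragulator genes did not move together. LAMTOR1 rose from 29.3 and 33.8 CPM to 40.0 and 40.8 CPM, LAMTOR4 fell from 84.2 and 91.6 CPM to 60.5 and 55.7 CPM, and LAMTOR5 fell from 57.3 and 55.8 CPM to 41.6 and 34.7 CPM. On the log2(TPM + 1) scale LAMTOR5 did not pass, at -0.17. LAMTOR2 at 48.1 and 46.4 against 53.7 and 48.0 CPM, and LAMTOR3 at 19.2 and 18.6 against 19.1 and 20.7 CPM, overlapped between resistant line and parent. LAMTOR5 was highest in the libraries labelled NCI-BL2171, at 101 and 103 CPM, and RPMI-8226-R was lower than these by -1.42 ± 0.08 (edgeR adjusted p = 1.0e-12). LAMTOR3 was lower in RPMI-8226 than in them by -1.02 ± 0.10 (edgeR adjusted p = 4.7e-09).

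Some promoters of the pathway hold the palindrome CACGTG, the E-box core that MYC and the lysosomal regulators TFEB and TFE3 can bind. Promoter windows (RefSeq, GRCh38.p14; 250 bases before to 50 after a start site) were matched for 41 of the 49 members, in 58 windows; WDR24, EIF4EBP1, RRAGD, DEPTOR, AKT1S1, CASTOR2, MLST8 and RRAGA were not matched. CACGTG, which reads the same on both strands, was found in 12 of the 58 windows (20.7%), against 9.20% of the windows of all tested protein-coding genes and 7.26% of all windows in the table. Of the 12 members with it 7 rose, 4 fell and 1 did not pass in the resistant line, and of the 29 matched members without it 9 rose, 11 fell and 9 did not pass. The longer form TCACGTGA, which contains CACGTG, was found in 4 windows, of RRAGB, TSC2, EIF4B and EIF4G1 (6.90% against 1.58% of the windows of tested protein-coding genes). RRAGB passed as higher and FNIP1, of the same branch, as lower. The RRAGB call was lost on the log2(TPM + 1) scale and with an offset for effective length. Their sequences are shown because both genes carry the E-box more than once and had opposite calls in the main test. They run 5′ to 3′ on the gene's strand up to the last base before the annotated gene, with CACGTG in capitals, for RRAGB at chrX:55717499-55717738 (plus strand) and for FNIP1 at chr5:131797064-131797267 (minus strand).
RRAGB: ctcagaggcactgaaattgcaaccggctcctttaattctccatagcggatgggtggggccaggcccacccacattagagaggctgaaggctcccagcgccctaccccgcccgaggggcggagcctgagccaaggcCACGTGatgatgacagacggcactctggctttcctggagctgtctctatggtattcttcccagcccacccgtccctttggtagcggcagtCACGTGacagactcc
FNIP1: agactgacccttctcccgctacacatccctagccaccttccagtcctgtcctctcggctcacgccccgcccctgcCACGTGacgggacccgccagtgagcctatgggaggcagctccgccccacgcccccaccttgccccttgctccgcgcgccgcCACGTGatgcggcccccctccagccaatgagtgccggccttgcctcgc
In RRAGB the matches begin 115 and 25 bases before the RefSeq start site, and in FNIP1 175 and 94 bases before it. A further CACGTG of RRAGB begins 8 bases after the start site, inside the annotated gene and beyond the printed stretch. A match is a run of letters and no measured binding.

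GATOR1, made of NPRL2, NPRL3 and DEPDC5, switches off the Rag GTPases, and GATOR2, made of WDR24, WDR59, MIOS, SEC13 and SEH1L, restrains GATOR1. Of the 10 genes with the CASTOR sensors 4 rose, 3 fell and 3 did not pass in the resistant line (6 rose and 2 fell without scaling beyond the library total, 6 and 1 on the log2(TPM + 1) scale). SEH1L, a GATOR2 subunit shared with the nuclear pore, stood at 27.3 and 27.2 CPM in RPMI-8226, 71.7 and 65.2 CPM in RPMI-8226-R and 46.2 and 50.3 CPM in the libraries labelled NCI-BL2171. The resistant line was highest and the parent lowest, at a log2 difference of 1.33 ± 0.08 (edgeR adjusted p = 1.2e-11). SEC13, the other subunit with a second role, in the nuclear pore and the COPII coat of secretory vesicles, went the opposite way, from 154 and 160.2 CPM to 127 and 117 CPM. On the log2(TPM + 1) scale SEC13 did not pass, with a difference of 0.023. It was far higher in the libraries labelled NCI-BL2171, at 394 and 384 CPM, and RPMI-8226-R was lower than these by -1.68 ± 0.06 (edgeR adjusted p = 8.7e-16). WDR24 rose from 18.1 and 17.3 CPM to 26.7 and 34.3 CPM. WDR59 at 30.0 and 32.7 against 34.2 and 36.7 CPM, and MIOS at 35.6 and 38.1 against 37.1 and 35.3 CPM, did not pass.

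GATOR1 genes rose or did not pass. NPRL3 rose from 43.5 and 48.9 CPM to 76.8 and 76.5 CPM and DEPDC5 from 9.48 and 7.83 CPM to 13.9 and 16.1 CPM. NPRL2 was at 33.3 and 32.9 CPM in RPMI-8226 and 33.6 and 34.2 CPM in RPMI-8226-R and did not pass, although it did on the log2(TPM + 1) scale (0.91, adjusted p = 0.00129) and with an offset for effective length (0.63, adjusted p = 0.00145); its reads were assigned to shorter transcripts in the resistant line than in the parent. DEPDC5 was higher in RPMI-8226-R than in the libraries labelled NCI-BL2171 by 1.10 ± 0.15 (edgeR adjusted p = 1.2e-06), and MIOS higher in RPMI-8226 than in them by 1.01 ± 0.09 (edgeR adjusted p = 3.2e-09).

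CASTOR1, a cytosolic arginine sensor that blocks GATOR2 when arginine is short (ENSG00000239282.8; chromosome 22, 30285117 to 30289627, minus strand), stood at 10.9 and 11.6 CPM in RPMI-8226, 0.890 and 1.73 CPM in RPMI-8226-R and 2.86 and 3.38 CPM in the libraries labelled NCI-BL2171. The parental line was the high one and the lines did not overlap. The log2 fold change between resistant line and parent was -3.08 ± 0.24 (edgeR adjusted p = 4.7e-10; -1.84 on the log2(TPM + 1) scale), from 293 and 293 reads in the parent and 24 and 50 in the resistant line. Its relative CASTOR2 fell as well, from 22.01 and 21.5 CPM to 17.4 and 16.9 CPM, but this did not pass without scaling beyond the library total (-0.13) or on the log2(TPM + 1) scale (-0.0096), nor with an offset for effective length (-0.34). Near-identical copies of CASTOR2 lie in the same region of chromosome 7, and its value is uncertain. The share of CASTOR1 in the summed TPM of both was 82.1% and 83.5% in RPMI-8226, 51.0% and 52.1% in RPMI-8226-R and 51.5% and 50.7% in the libraries labelled NCI-BL2171.

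The TSC complex turns off RHEB, the GTPase that activates complex 1. TSC2, its GTPase-activating subunit, rose in the resistant line from 45.7 and 46.1 CPM to 60.7 and 66.8 CPM, and TBC1D7, its smallest subunit, fell from 63.2 and 62.7 CPM to 37.3 and 34.0 CPM. RHEB itself (chromosome 7, 151466012 to 151520120, minus strand) was at 80.2 and 81.8 CPM in RPMI-8226, 33.3 and 31.9 CPM in RPMI-8226-R and 76.1 and 74.7 CPM in the libraries labelled NCI-BL2171. The resistant line was low in both libraries, by -1.31 ± 0.07 against the parent (edgeR adjusted p = 2.1e-12) and by -1.21 ± 0.07 against the libraries labelled NCI-BL2171 (edgeR adjusted p = 2.9e-12). Thus the direct activator of complex 1 had less RNA in the line in which RPTOR and MTOR had more. TSC1, the scaffold, was at 29.6 and 29.1 CPM in RPMI-8226 and 32.3 and 40.9 CPM in RPMI-8226-R and passed as higher. That call was lost without RPMI-8226-R replicate 2 (0.15 on the log2 scale) and without RPMI-8226 replicate 2 (0.31), as well as on the log2(TPM + 1) scale (0.10), and its direction turned with an offset for effective length (-0.21). Exons of TSC1 overlap those of GFI1B on the other strand, and exons of TSC2 overlap those of PKD1 and NTHL1.

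The sestrins restrain complex 1 through GATOR2, with SESN2 known as a leucine sensor, and DDIT4, also called REDD1, acts through TSC when oxygen or energy is short. Of the 5 genes of this branch none rose, 4 fell by more than 2-fold and 1 did not pass in the resistant line. Among all tested genes 21.5% were lower by at least 2-fold. SESN2 (ENSG00000130766.5; chromosome 1, 28259527 to 28282491, plus strand) stood at 73.4 and 73.7 CPM in RPMI-8226, 12.2 and 11.4 CPM in RPMI-8226-R and 112 and 107 CPM in the libraries labelled NCI-BL2171. The resistant line was low against both, by -2.64 ± 0.08 (edgeR adjusted p = 1.7e-16) and -3.22 ± 0.08 (edgeR adjusted p = 8.8e-19). SESN1, known as a target of p53 and FOXO factors, was at 54.8 and 54.4 CPM in RPMI-8226, 10.2 and 11.2 CPM in RPMI-8226-R and 18.2 and 16.9 CPM in the libraries labelled NCI-BL2171. Here the parent was the high line, with a log2 fold change of -2.35 ± 0.10 for the resistant line against it (edgeR adjusted p = 2.3e-14). SESN3 did not follow: it was at 17.9 and 16.05 CPM in RPMI-8226 and 15.1 and 18.6 CPM in RPMI-8226-R, which overlap, and at 83.1 and 81.4 CPM in the libraries labelled NCI-BL2171, so that RPMI-8226 differed from the latter by -2.27 ± 0.10 (edgeR adjusted p = 8.1e-15).

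Summed over the 3 sestrins, the level in TPM was 45.0 and 42.8 in RPMI-8226, 10.6 and 12.1 in RPMI-8226-R and 48.5 and 49.6 in the libraries labelled NCI-BL2171. The parent and the libraries labelled NCI-BL2171 thus had similar sums from different members, with SESN1 at 55.7% of the sum in RPMI-8226 and SESN2 at 61.8% in the libraries labelled NCI-BL2171 (means of 2 libraries). In the resistant line SESN3 had 18.5% and 19.6% of the lower sum, against 5.19% and 4.35% in the parent.

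DDIT4 was the most abundant member per length in RPMI-8226, at 739 and 740.2 TPM. In CPM it stood at 1570 and 1653 in RPMI-8226, 411 and 440.1 in RPMI-8226-R and 1288 and 1239 in the libraries labelled NCI-BL2171. The resistant line was the low one, by -1.92 ± 0.06 against the parent (edgeR adjusted p = 4.3e-16) and -1.57 ± 0.06 against the libraries labelled NCI-BL2171 (edgeR adjusted p = 2.1e-15). DDIT4L, its relative, was at 12.8 and 14.7 CPM in RPMI-8226 and 2.08 and 1.63 CPM in RPMI-8226-R, that is -2.89 ± 0.21 on the log2 scale (edgeR adjusted p = 2.8e-10; -1.66 on the log2(TPM + 1) scale). The libraries labelled NCI-BL2171 had no DDIT4L read; against a floor of 3 counts per library, DDIT4L was at least 119-fold higher in RPMI-8226 and at least 16.05-fold higher in RPMI-8226-R.

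DDIT4 is a textbook target of hypoxia-inducible factors, whose binding core is ACGTG or GCGTG, and its promoter is shown because DDIT4, like SESN1, SESN2 and DDIT4L, fell in the resistant line. The window is chr10:72273674-72273919 (RefSeq, GRCh38.p14, plus strand, up to the last base before the annotated gene), with ACGTG in capitals.
DDIT4: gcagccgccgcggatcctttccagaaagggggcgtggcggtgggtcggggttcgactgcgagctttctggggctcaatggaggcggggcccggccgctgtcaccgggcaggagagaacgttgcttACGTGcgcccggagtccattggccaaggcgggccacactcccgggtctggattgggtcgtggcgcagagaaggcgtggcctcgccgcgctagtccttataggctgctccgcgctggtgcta
The match begins 125 bases before the start site. GCGTG, left in lower case, also begins in the RefSeq window at positions -219, -53 and 26 from the start site, the last of these beyond the printed stretch. ACGTG, which is also part of CACGTG, was found on either strand in 23 of the 58 member windows (39.7%) against 24.8% of the windows of tested protein-coding genes. GCGTG was found in 30 (51.7%) against 47.6%. No factor binding was measured.

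Of the 6 genes of cap-dependent translation 1 rose, 2 fell and 3 did not pass in the resistant line. EIF4G1, the scaffold that joins EIF4E to the ribosome-recruiting factors (ENSG00000114867.22; chromosome 3, 184314495 to 184335358, plus strand), stood at 262 and 269.8 CPM in RPMI-8226, 568 and 620.2 CPM in RPMI-8226-R and 260.5 and 271 CPM in the libraries labelled NCI-BL2171. The resistant line was high and the other lines overlapped. The log2 fold change was 1.16 ± 0.06 against the parent (edgeR adjusted p = 1.4e-12) and 1.16 ± 0.06 against the libraries labelled NCI-BL2171 (edgeR adjusted p = 4.3e-13). EIF4E, the cap-binding protein, was at 36.8 and 37.2 CPM in RPMI-8226 and 39.5 and 34.6 CPM in RPMI-8226-R, which overlap, and at 76.2 and 82.8 CPM in the libraries labelled NCI-BL2171. Both myeloma lines were lower than these, each by -1.10 ± 0.08 (edgeR adjusted p = 1.0e-10 in the parent and 8.8e-11 in the resistant line). In TPM, EIF4G1 over EIF4E was 7.96 and 8.76 in RPMI-8226, 17.6 and 21.3 in RPMI-8226-R and 3.98 and 4.14 in the libraries labelled NCI-BL2171. The scaffold thus gained on the cap-binding protein in the resistant line.

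The promoter of EIF4G1 is shown for a further E-box and as the only riser of its branch with TMM scaling, at chr3:184314356-184314494 (RefSeq, GRCh38.p14, plus strand, up to the last base before the annotated gene), with CACGTG in capitals.
EIF4G1: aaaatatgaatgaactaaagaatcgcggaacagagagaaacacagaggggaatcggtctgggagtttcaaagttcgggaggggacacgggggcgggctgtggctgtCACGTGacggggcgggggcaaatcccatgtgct
The match begins 144 bases before the start site and is the centre of TCACGTGA. Another CACGTG begins at position -67 from the start site, inside the annotated gene and beyond the printed stretch.

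Neither 4E-BP gene passed between the resistant line and its parent with TMM scaling, but both passed as higher on the log2(TPM + 1) scale. EIF4EBP1, which binds and holds back EIF4E until complex 1 phosphorylates it, was at 49.01 and 48.2 CPM in RPMI-8226, 55.4 and 52.1 CPM in RPMI-8226-R and 80.7 and 71.4 CPM in the libraries labelled NCI-BL2171. Both myeloma lines were lower than the libraries labelled NCI-BL2171. EIF4EBP2 was at 144 and 144 CPM in RPMI-8226 and 138 and 145 CPM in RPMI-8226-R, which overlap. EIF4B, a cofactor of the initiation helicase, went from 539 and 558 CPM to 499 and 496 CPM, and PDCD4, an inhibitor of that helicase, from 122 and 122 CPM to 96.6 and 96.1 CPM. Both calls depended on scaling: EIF4B differed by 0.073 without scaling beyond the library total and by 0.23 on the log2(TPM + 1) scale, and PDCD4 stayed lower but did not pass, at -0.13 and -0.12. The branch had 4 genes higher and 0 lower without scaling beyond the library total and 5 higher and 0 lower on the log2(TPM + 1) scale. EIF4E, EIF4EBP1 and EIF4EBP2 were among the 5 on the latter scale. In TPM, EIF4EBP1 over EIF4E was 3.24 and 3.19 in RPMI-8226, 3.83 and 3.86 in RPMI-8226-R and 2.54 and 2.33 in the libraries labelled NCI-BL2171.

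Among 32 further genes of the pathway, listed as partners and downstream effectors of the members, 31 were tested (PRKAA2 was not). Of these 9 rose, 13 fell and 9 did not pass in the resistant line, against 28.5% higher and 37.2% lower of all tested genes. The balance depended on scaling: 12 rose and 10 fell without scaling beyond the library total, 11 and 8 on the log2(TPM + 1) scale. The further genes with at least a 2-fold rise were EEF2K, the kinase that slows elongation (1.88 on the log2 scale), LARP1, which binds ribosomal protein mRNAs (1.62), KICS2 of the KICSTOR complex that anchors GATOR1 (1.40), and EIF4G2, a relative of EIF4G1 (1.07). Those with at least a 2-fold fall were the helicase EIF4A2 (-1.45), TFEB, the lysosomal transcription factor held in the cytosol by complex 1 (-1.44), and EIF4E3, a relative of EIF4E (-1.42). On the log2(TPM + 1) scale TFEB (-0.84) and EIF4E3 (-0.86) fell by less than 2-fold. Of all tested genes 11.8% were higher and 21.5% lower by at least 2-fold. KICS2 thus rose with the GATOR1 genes NPRL3 and DEPDC5.

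The deposited tables also give a mean transcript length per gene weighted by the abundance of its isoforms, so that a change of it shows reads assigned to other isoforms. A shift was called where the 2 lines differed by a ratio of at least 5 to 4 without overlap and each library had at least 10 reads. All 49 members met the read minimum for resistant line against parent, and 5 were longer and 1 shorter, against 10.8% of 15506 genes shifted in either direction. The share over all genes was not split into longer and shorter, and the members' count was not tested against it. FNIP1 differed most among the members, at 2231 and 2228 bases in RPMI-8226, 5612 and 5063 in RPMI-8226-R and 2165 and 2244 in the libraries labelled NCI-BL2171. Of the 3 lines the resistant one stood apart, at 2.39 times the length in the parent. TSC1 was at 2406 and 2716 bases in RPMI-8226, 3859 and 3628 in RPMI-8226-R and 1566 and 1755 in the libraries labelled NCI-BL2171, a different length in each line. RICTOR went from 5542 and 6316 to 9051 and 7623 bases, SLC38A9 from 970 and 1174 to 1450 and 1352, and TTI1 from 2813 and 2959 to 3773 and 3594. NPRL2 was the shorter one, from 2161 and 2169 to 1639 and 1456 bases. Of the other comparisons, each with 46 members, RPMI-8226 had 3 longer (RPTOR, RRAGD and TSC1) and 1 shorter (SLC38A9) against the libraries labelled NCI-BL2171 (8.16% of all genes), and RPMI-8226-R had 5 longer (RPTOR, RRAGD, FNIP1, DEPDC5 and TSC1) and 0 shorter (10.3%). The isoform estimates carry no error of their own in the tables.

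**Figure D4:**
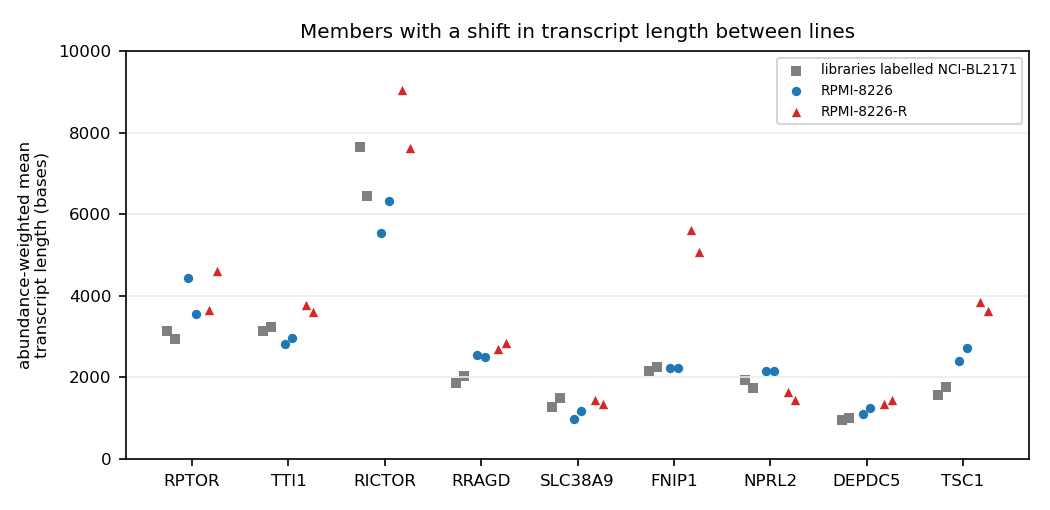
Abundance-weighted mean transcript length in bases (vertical axis) per library for the 9 members with a shift in at least 1 comparison, with grey squares for the libraries labelled NCI-BL2171, blue circles for RPMI-8226 and red triangles for RPMI-8226-R. FNIP1 is near 2230 bases in 4 libraries and at 5063 and 5612 bases in the RPMI-8226-R libraries.

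Of the members, 5 lie near the start of chromosome 16, between positions 84271 and 2209416: NPRL3, WDR24, TELO2, TSC2 and MLST8. All 5 rose in the resistant line, against 33.4% of all tested protein-coding genes. WDR59, farther along the same chromosome at position 74871367, did not pass (0.18 on the log2 scale). The medians of their nearest tested protein-coding neighbours (20 each, 14 for NPRL3 at the chromosome end) ranged from -0.39 to 0.10 on the log2 scale, and those of TSC2 and MLST8 share genes. TELO2 stood 1.30 above its neighbours, WDR24 0.87, NPRL3 0.65, TSC2 0.41 and MLST8 0.41. Each of the 5 thus lay above the median of the genes around it, a difference that was not tested. All 5 were already called higher, so with neighbour medians of at most 0.10 this follows largely from the calls. It is no separate result. Among the largest falls, the neighbours of DEPTOR had a median of -0.36, those of CASTOR1 -0.36, of SESN2 -0.0046 and of SESN1 -0.28. Those of RRAGD had 0.25 and those of DDIT4L 0.11, against -0.07 for all tested protein-coding genes. DDIT4 lay in a region that was lower itself, with a neighbour median of -0.62, and stood 1.30 under it. Of its 20 neighbours 12 were called lower, and of those of CASTOR1 11, against 38.7% of all tested protein-coding genes. Members with a smaller fall or a rise had such neighbours too. The median was -0.93 around CASTOR2 and -0.61 around RRAGB, which passed as higher. NPRL3, whose introns hold the enhancers of the alpha-globin genes next to it, was higher in the libraries labelled NCI-BL2171, at 95.4 and 85.4 CPM, than in RPMI-8226, at 43.5 and 48.9 CPM. Its neighbours differed in the same direction, by a median of -0.89 for RPMI-8226 against those libraries.

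Over all members, RPMI-8226-R against the libraries labelled NCI-BL2171 had 18 higher and 23 lower, against 39.2% and 38.2% of all tested genes (77.4% in all). At least 2-fold differences were found for 9 members upward and 11 downward, against 25.8% and 24.6% of all tested genes (50.4% in all). Lowest relative to these libraries were SESN2, SESN3 and FNIP1 (-1.96 ± 0.10; edgeR adjusted p = 8.1e-14), and highest were DDIT4L, PRR5L, DEPTOR and RRAGD (3.14 ± 0.13; edgeR adjusted p = 4.6e-15). These 4 were also the highest in RPMI-8226 over the same libraries. FLCN, TBC1D7 and CASTOR1 were lower in RPMI-8226-R than in them by -1.15 ± 0.13, -1.01 ± 0.08 and -1.24 ± 0.27 (edgeR adjusted p = 3.9e-08, 1.4e-10 and 3.2e-04). RRAGB and SLC38A9 were higher by 1.24 ± 0.25 and 1.76 ± 0.14 (edgeR adjusted p = 1.5e-04 and 1.2e-10); for RRAGB the call was lost on the log2(TPM + 1) scale (1.07, adjusted p = 0.0574).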

How the data were processed

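Total RNA from 3 untreated lines was depleted of ribosomal RNA and sequenced in 6 libraries, per the labels' protocols. For each library the authors deposited a table of reads, TPM, length and effective length by gene. The deposited estimated counts need not be whole and were rounded. The deposited TPM values and lengths in bases are another product of the same estimates, per the file headers. The submitters' processing notes name GRCh38.p13 as the build. The quantifier is not given in the sources used here, nor are its annotation and strand setting. Exons of 32 of the 49 members overlap another GENCODE 29 gene.

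The test was that of edgeR 4.0.16 under R 4.3.3 (TMM, filterByExpr by line with minimum count 10 and minimum total 15, a robust quasi-likelihood F test fitted to the 6 libraries together, 3 residual degrees of freedom, two-sided, Benjamini-Hochberg over 20081 genes at 0.05). Fold changes are given with their SE for members with at least a 2-fold called change and for MTOR, RPTOR, RICTOR, MLST8 and DEPTOR. The typical coefficient of biological variation was 6.81%. The libraries of each line differed by more than sampling noise (chi-square per gene between 3.45 and 11.03), so none was a copy. For genes without a read in a line the floor was 3 counts in each library; floors and the 95% intervals of count ratios cover counting error only. Alternatives used DESeq2 1.42.0 and limma 3.58.1, and the procedure was tested on simulated data. Positions are from GENCODE 29 (GRCh38). Members, lists and motifs were chosen with earlier results of these data known.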

Additional observations from a re-analysis of the deposited data

How the results depend on the processing

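Each count of members and of all tested genes was recomputed under 16 alternatives: other scalings and tests, an offset for effective length, no filter, only the lines compared, a replicate block, and each library left out. Of 192 recomputed counts 188 stayed within 1.5 times the main count; the other 4 were all on TPM scales, where for RPMI-8226-R against RPMI-8226 11 members were lower with either pseudocount (18 in the main test). The number of all tested genes lower in RPMI-8226-R than in RPMI-8226 was 4557 with pseudocount 1 and 4609 with pseudocount 0.1 (7461 in the main test). The cause was not tested. Without 1 library, the members ranged from 17 to 20 higher and were 17 lower for resistant line against parent, from 14 to 16 higher and 22 to 25 lower for the parent against the libraries labelled NCI-BL2171, and from 18 to 19 higher and 21 to 23 lower for the resistant line against these.

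Of 1024 recomputed fold changes of named members 984 kept direction and call, 18 lost the call, 14 gained one and 8 turned sign. Those that turned were TSC1 for resistant line against parent with an offset for effective length (-0.21); RPTOR (-0.067 with that offset) and TSC1 (-1.09 with it, -0.92 and -0.97 on the TPM scales with pseudocounts 1 and 0.1) for the resistant line against the libraries labelled NCI-BL2171; and, in that comparison without 1 library, MLST8, which ranged from -0.065 to 0.093, and TSC1, from -0.034 to 0.30.

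Libraries of different lines share only a replicate number: their deviations correlated at 0.033, -0.0035 and 0.013 across genes. With a replicate block the members stood at 19 higher and 18 lower, 14 and 24, and 18 and 23, as without it. Members with few reads (PRR5L, CASTOR1, RRAGB) are limited by depth, and 2 libraries per line limit every estimate of spread.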

Other observations

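The 32 further genes of the pathway include 6 subunits of AMPK, the energy-sensing kinase that acts on TSC2 and RPTOR. Of these 6 listed subunits 4 differed without overlap between the myeloma lines and the libraries labelled NCI-BL2171. PRKAB1, a beta subunit, stood at 97.8 and 100.4 CPM in the latter, 22.4 and 24.6 CPM in RPMI-8226 and 21.3 and 23.8 CPM in RPMI-8226-R. PRKAG2, a gamma subunit, went the other way, at 2.94 and 2.94 CPM, 11.2 and 12.5 CPM, and 19.5 and 17.4 CPM in the same order. Against the libraries labelled NCI-BL2171, RPMI-8226 differed by -2.08 ± 0.09 for PRKAB1, -1.53 ± 0.11 for PRKAB2, -1.06 ± 0.09 for PRKAG1 and 2.01 ± 0.16 for PRKAG2 on the log2 scale (edgeR adjusted p from 2.6e-15 to 1.4e-09). RPMI-8226-R differed from the same libraries by -2.14, -1.95, -1.11 and 2.65. Most tested genes differed from these libraries too: 76.7% passed in the comparison with the parent and 77.4% in that with the resistant line. At least 2-fold differences were found for 48.7% and 50.4% of all tested genes. Whether the AMPK subunits differed more often than this background was not tested. The catalytic subunit PRKAA1 did not pass in either comparison (0.044 and 0.046), and PRKAA2 had no read in any library. EIF4EBP3, another 4E-BP gene, had no read in either myeloma line and 1.80 and 1.97 CPM in the libraries labelled NCI-BL2171, so that these were at least 16.4-fold and 17.5-fold higher against a floor of 3 counts per library. These comparisons share the libraries labelled NCI-BL2171, whose markers go against their label.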
